A study of Anser anser with 16 samples.

Results

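The pituitary gland was compared with the hypothalamus of the same goose, using all 16 of the 16 libraries of the series: 8 pituitary and 8 hypothalamus libraries from 8 birds. A library was placed by the tissue and bird number in its label, and each pituitary was paired with the hypothalamus that carried the same bird number. The birds were males of the White Kołuda strain W33 (Anser anser) on day 108, raised indoors for the first weeks and then with access to free range, and fattened on oats. Birds 33, 37, 38 and 40 had a low growth rate and birds 49, 50, 52 and 54 a high one, and the growth groups were pooled here. No transgene, drug or other treatment is given in the labels, and how much of each tissue was dissected is not stated there. RNA was read as counts of reads per gene, and levels are given as CPM (the count of a gene relative to the size of its library after TMM scaling).

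The hypothalamus is a brain region of neurons and glia that releases peptides and amines into the portal blood running to the pituitary. The pituitary's anterior lobe is an epithelial gland whose endocrine cells answer those signals through receptors and secrete growth hormone, prolactin, thyrotropin, the gonadotropins and corticotropin. Its posterior lobe holds axon endings of hypothalamic neurons and glia-like pituicytes. The comparison therefore sets a secretory epithelium beside nervous tissue within the same animal, and bulk RNA gives their cell types, receptors, transcription factors and metabolic enzymes together.

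Pituitary libraries held 8543585 to 14456667 counts and hypothalamus libraries 9186728 to 18068056. The 10 most abundant genes took 18.1% to 23.2% of pituitary counts and 3.86% to 4.37% of hypothalamus counts. TMM, which corrects for such composition, left the median log2 difference over all genes at 0.05, and scaling by library totals alone moved it to -0.14. The tissue labels matched their defining markers in every library: the summed PRL, CGA and POMC level was 50903 to 119758 CPM in the pituitary and 87.3 to 198.9 CPM in the hypothalamus, with the highest hypothalamus value in bird 38. The pituitaries of birds 38, 40 and 50 stood apart in their levels of VIM and AGRP. VIM, an intermediate filament of glia and mesenchyme, was at 1469, 1342 and 1538 CPM in them, at 732 CPM in bird 54 and at 239 to 317 CPM in the other 4. Appetite peptide AGRP was at 30.2, 56.4 and 27.2 CPM in the same 3 pituitaries, against at most 3.03 CPM in the other 5 pituitaries. Muscle actin ACTA1 reached 649 CPM in the pituitary of bird 50 and 147 CPM in that of bird 38. Why these RNAs were higher in those libraries was not tested. Named genes that gained or lost a call without birds 38, 40 and 50 are described with and without them. List counts cover all 8 birds unless stated, and some changed without those 3. Calls in the pituitary went from 9 to 8 for epithelial genes, 36 to 33 for ribosomal proteins and 10 to 11 for nuclear receptors.

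Of 13843 genes tested, 1959 were higher in the pituitary and 2653 higher in the hypothalamus, 14.2% and 19.2% of all genes. A gene was called when its edgeR quasi-likelihood test, with the bird as a block, gave a Benjamini-Hochberg adjusted p under 0.05 over all genes and the fold was at least 2. The adjusted p alone was passed by 80.1% of the genes, so the fold decides most calls. Differences of at least 16-fold were more numerous on the hypothalamus side, with 419 genes against 144 in the pituitary. The ranges of the tissues did not overlap for 50.1% of the genes, and 9324 genes differed in the same direction in all 8 birds. Names were available for 9810 of the tested genes. Without birds 38, 40 and 50, 1988 genes were higher in the gland and 2747 in the hypothalamus, and 4430 of the 4612 calls were made again. Throughout, log2 differences are pituitary minus hypothalamus with their standard error over 8 birds, so a negative value means a higher level in the hypothalamus.

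**Figure D1:**
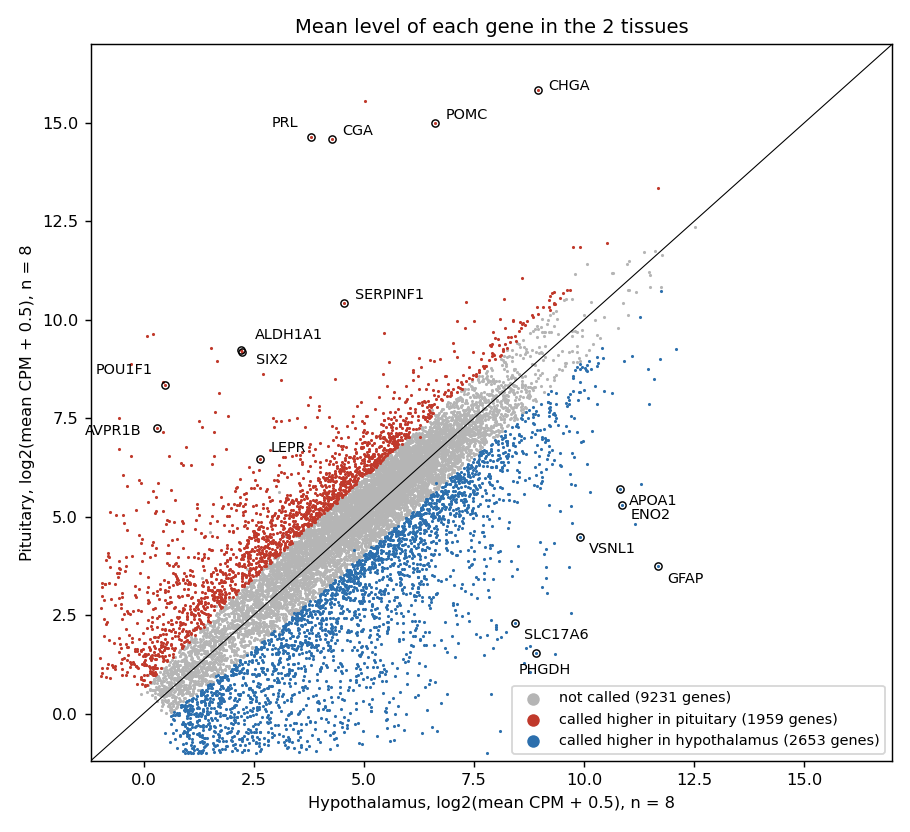
Mean level of each tested gene in the hypothalamus (x axis) and in the pituitary (y axis), both as log2(CPM + 0.5) over 8 libraries, with the line of equal level. Red points are the 1959 genes called higher in the pituitary, blue points the 2653 called higher in the hypothalamus, and named genes are circled; the hormone genes and CHGA lie far above the line, and GFAP, PHGDH and ENO2 far below it.

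**Figure D2:**
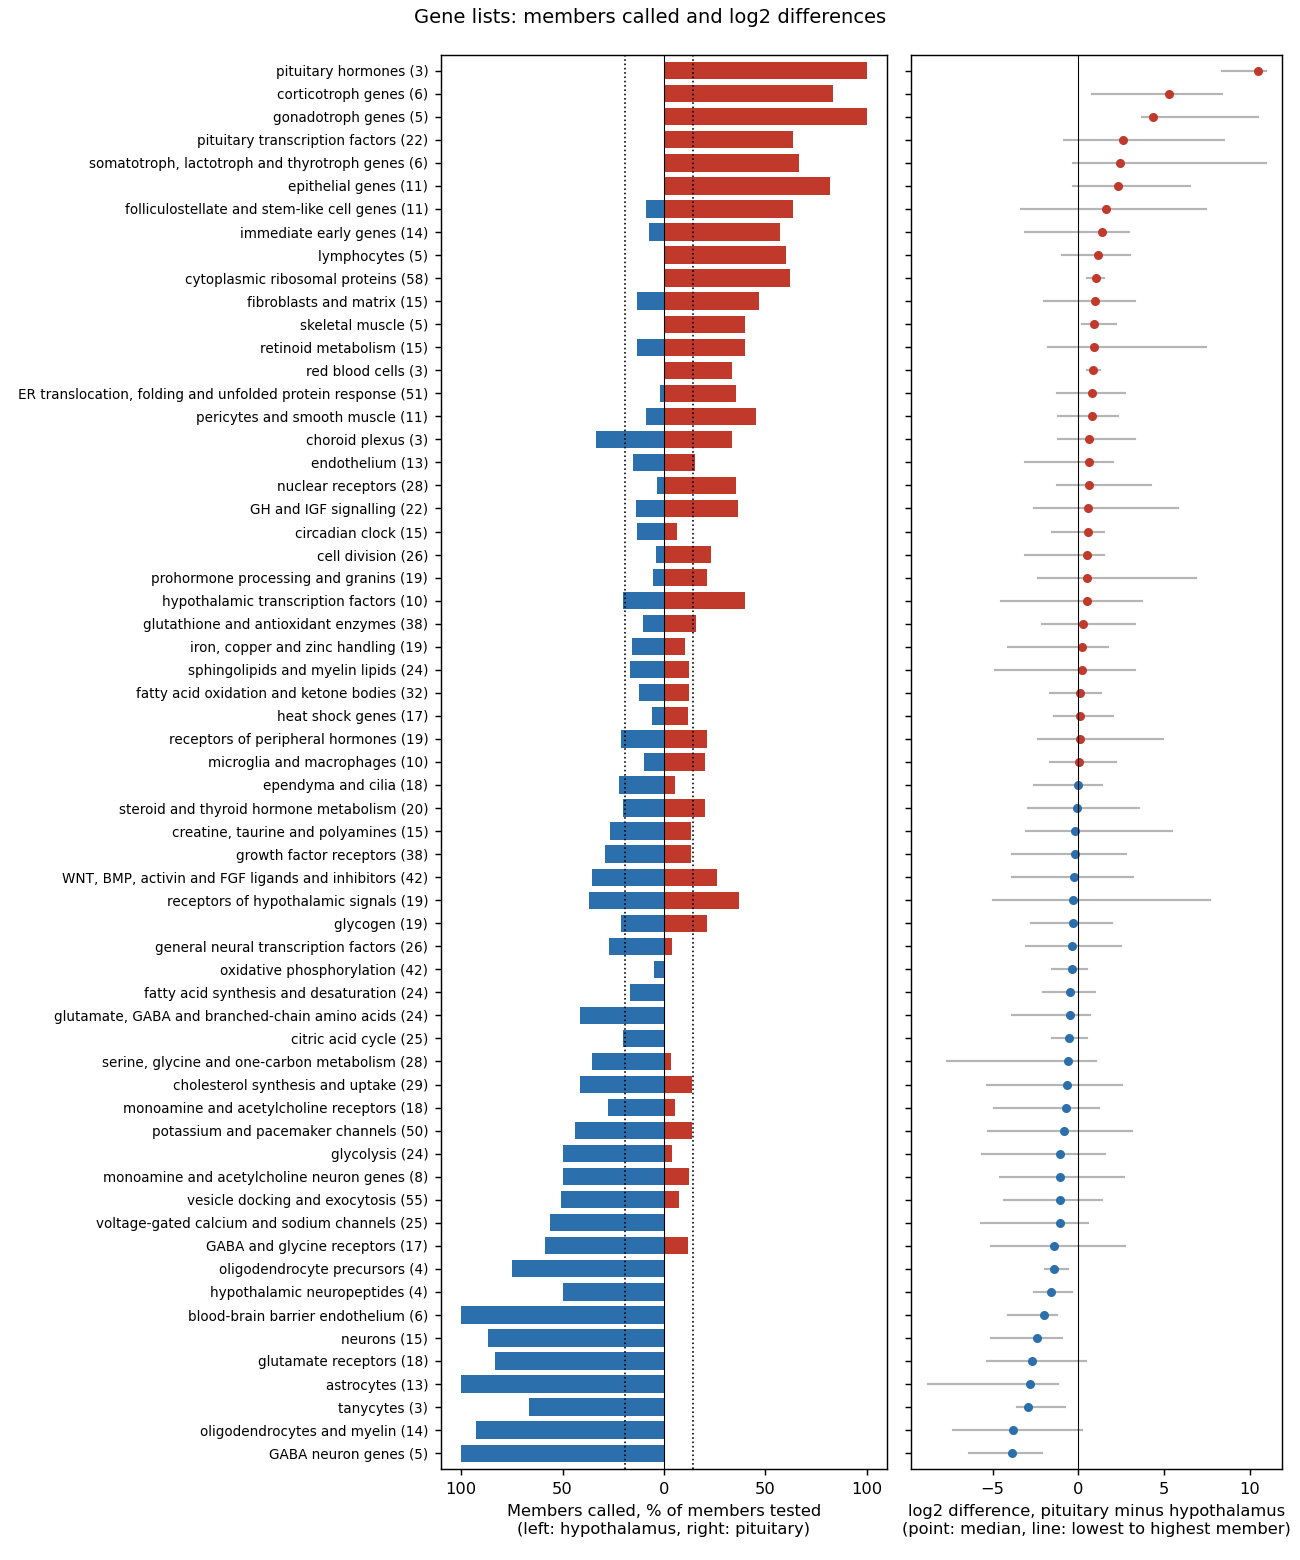
Left, the share of the tested members of each gene list (number tested in brackets) called higher in the pituitary (red, to the right) or in the hypothalamus (blue, to the left), with dotted lines at the shares over all genes, 14.2% and 19.2%. Right, the median log2 difference of each list (point) and the range of its members (line); endocrine, epithelial and ribosomal lists lie on the pituitary side, and the neuron, astrocyte, myelin, glutamate receptor and calcium and sodium channel lists on the hypothalamus side.

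Most genes listed for the endocrine cells of the pituitary were much higher there than in the hypothalamus. All 5 tested gonadotroph genes, 5 of 6 corticotroph genes and 4 of 6 genes of somatotrophs, lactotrophs and thyrotrophs were called higher in the pituitary and none higher in the hypothalamus, beside 14.2% and 19.2% over all genes. Their median log2 differences were 4.34, 5.31 and 2.42. The gonadotroph list counted CHGA, a granin, and CGA, which is not particular to gonadotrophs. NR4A1 and NEUROD1 were counted on the corticotroph list. These counts therefore do not tell the endocrine cell types apart. POMC, the precursor of corticotropin, was at 21488 to 45987 CPM (median 32864) in the pituitary and at 62.9 to 151 CPM (median 98.5) in the hypothalamus. PRL, prolactin, was at 12429.5 to 45196 CPM (median 23489.9) and 8.48 to 32.99 CPM (median 10.1), and CGA, the shared subunit of the glycoprotein hormones, at 12885 to 41880.5 CPM (median 23472) and 11.4 to 57.2 CPM (median 13.9). The 3 hormone genes did not overlap between the tissues, and their log2 differences were 8.39 ± 0.22, 10.93 ± 0.49 and 10.48 ± 0.44. Growth hormone and the luteinizing hormone beta subunit had no named gene in the gene table and were read from the assembled table, in which 12.8% of 92748 assembled genes were higher in the pituitary, against 15.8% in the hypothalamus. The assembled gene whose protein match was duck growth hormone (98.61% identity) was at 20079.8 to 54998 CPM (median 33936) and 13.7 to 97.1 CPM (median 14.9), a log2 difference of 10.70 ± 0.43 (edgeR adjusted p = 1.53e-08). The luteinizing hormone beta match differed by 10.57 ± 0.53. Levels of assembled genes are on the scale of that table and are not set against those of the gene table.

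Lineage factors of the endocrine cells were separated as clearly. TBX19, the corticotroph factor that drives POMC, was at 78.1 to 157 CPM (median 100.5) against 2.09 to 4.28 CPM (median 3.25). POU1F1, the factor of somatotrophs, lactotrophs and thyrotrophs, was at 247 to 395 CPM (median 329) against 0.571 to 1.16 CPM (median 0.989). Neither gene's ranges overlapped, and the log2 differences were 5.03 ± 0.10 and 8.48 ± 0.13 (edgeR adjusted p = 1.48e-11 and 9.30e-12). NEUROD1, a basic helix-loop-helix factor of endocrine and nerve cells, differed by 5.60 ± 0.19. The gonadotroph factors NR5A1 (steroidogenic factor 1), FOXL2 and GATA2 differed by 4.25 ± 0.19, 4.34 ± 0.21 and 3.74 ± 0.17. PCSK1, the convertase that cuts POMC, missed the fold threshold at 0.80 ± 0.06. In bulk tissue, more cells of a type and more RNA per cell cannot be told apart, here or in any comparison that follows.

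Epithelial genes set the gland apart as strongly as several endocrine markers. Of 11 tested epithelial genes, 9 were higher in the gland and none in the hypothalamus, with a median of 2.32. EPCAM, an epithelial adhesion molecule, was at 137 to 288 CPM (median 237) and 10.99 to 19.2 CPM (median 15.5). ESRP2, an epithelial splicing regulator, was at 76.4 to 104 CPM (median 94.2) and 0.761 to 1.31 CPM (median 0.948). All 8 pituitaries lay above all 8 hypothalami for both genes, and the log2 differences were 3.84 ± 0.11 and 6.50 ± 0.11. ESRP1 differed by 3.50 ± 0.12, the tight junction gene CLDN1 by 3.88 ± 0.23 and E-cadherin (CDH1) by 2.73 ± 0.21.

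The list for folliculostellate and stem-like cells, the non-hormonal cells of the anterior lobe, was mixed: 7 of 11 tested members were higher in the pituitary, against 1 in the hypothalamus. The called members were led by retinaldehyde dehydrogenases. ALDH1A1 was at 396 to 944 CPM (median 512) and 2.49 to 7.12 CPM (median 3.28), and ALDH1A3 at 312 to 777 CPM (median 433) and 1.61 to 3.599 CPM (median 2.78). Both were without overlap, with log2 differences of 7.17 ± 0.19 and 7.43 ± 0.24. SOX2 and SOX9, progenitor factors that neural cells express too, were not called, with -0.28 ± 0.09 and -0.04 ± 0.18. S100B, a glial and folliculostellate calcium-binding protein of mammals, was lower in the pituitary, by -3.32 ± 0.41 over all birds and by -4.12 without birds 38, 40 and 50.

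Neurons and glia made up the other pole. Of 15 tested neuronal genes 13 were higher in the hypothalamus, all 13 tested astrocyte genes were, and so were 13 of 14 genes of oligodendrocytes and myelin, with medians of -2.43, -2.83 and -3.82 and none called higher in the pituitary. GAP43, a growth cone protein, was at 7.58 to 21.8 CPM (median 17.8) in the pituitary and 487 to 602 CPM (median 540.2) in the hypothalamus, and the synaptic SNAP25 at 67.6 to 92.6 CPM (median 81.03) and 603 to 796 CPM (median 710.3). The neuronal list as a whole kept 1235 to 1503 summed CPM in the pituitary, against 6810 to 7806 in the hypothalamus, and RBFOX3 and STMN2 differed by -0.96 ± 0.11 and -1.79 ± 0.07. GFAP, the astrocyte filament, was at 1.53 to 64.2 CPM (median 4.33) and 1828 to 6673 CPM (median 2957), with bird 50 highest in both tissues. It did not overlap between the tissues, and its log2 difference of -8.79 ± 0.47 became -9.76 without birds 38, 40 and 50.

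Transmitter phenotypes followed the same division. SLC17A6, the vesicular glutamate transporter of neurons, was at 2.53 to 5.87 CPM (median 4.499) in the pituitary and at 295 to 445 CPM (median 336) in the hypothalamus. All 5 tested GABA neuron genes were higher in the hypothalamus. GAD1 and GAD2, which make GABA, differed by -3.89 ± 0.20 and -2.93 ± 0.17, and GAD2 kept 45.1 to 103 CPM (median 81.4) in the pituitary. The histamine enzyme HDC and the vesicular monoamine transporter SLC18A2 differed by -4.56 ± 0.20 and -4.08 ± 0.27. The list of monoamine and acetylcholine neurons had 1 member of 8 higher in the pituitary, GCH1, which makes the tetrahydrobiopterin cofactor, at 101 to 171 CPM (median 124) against 18.04 to 21.6 CPM (median 20.3) (2.66 ± 0.08). Of 35 genes listed as hypothalamic neuropeptides 4 had a named gene that passed the filter. PENK and BDNF were called, at -2.59 ± 0.63 and -2.41 ± 0.17, and BDNF is a growth factor rather than a neuropeptide. PENK overlapped between the tissues, with pituitary values of 165, 372, 226 and 298 CPM in birds 38, 40, 50 and 54 and of 21.3 to 29.6 CPM in the other 4, and its difference became -3.75 without birds 38, 40 and 50. AGRP differed by -0.80 ± 0.80 over all birds and by -2.99 without birds 38, 40 and 50. In the assembled table, somatostatin was at 0.239 to 23.5 CPM (median 1.22) and 414 to 609.9 CPM (median 578) (-7.71 ± 0.86), the neurophysin 1 precursor at 2.07 to 4.28 CPM (median 2.87) and 193 to 406 CPM (median 333) (-6.64 ± 0.17), and TAC1, the substance P precursor, differed by -5.41 ± 0.35.

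Genes of the cells that line the ventricle did not all go one way. Of 18 genes of cilia and ependyma 4 were higher in the hypothalamus and 1 in the pituitary, with a median of -0.02. The first count is near the 19.2% over all genes, and the second below the 14.2%. FOXJ1, the master factor of motile cilia, was at 2.15 to 4.104 CPM (median 2.98) in the pituitary and 13.8 to 21.4 CPM (median 18.4) in the hypothalamus (-2.56 ± 0.11), whereas SPAG17, an axoneme protein, was at 44.8 to 56.7 CPM (median 50.1) and 15.2 to 25.7 CPM (median 19.2) (1.36 ± 0.08). Of 3 tested tanycyte genes CRYM and COL25A1 were higher in the hypothalamus, at -2.92 ± 0.30 and -3.58 ± 0.24, and CRYM at -3.62 without birds 38, 40 and 50. VIM overlapped between the tissues at -0.78 ± 0.32, and it was called higher in the hypothalamus, at -1.49, without birds 38, 40 and 50.

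**Figure D3:**
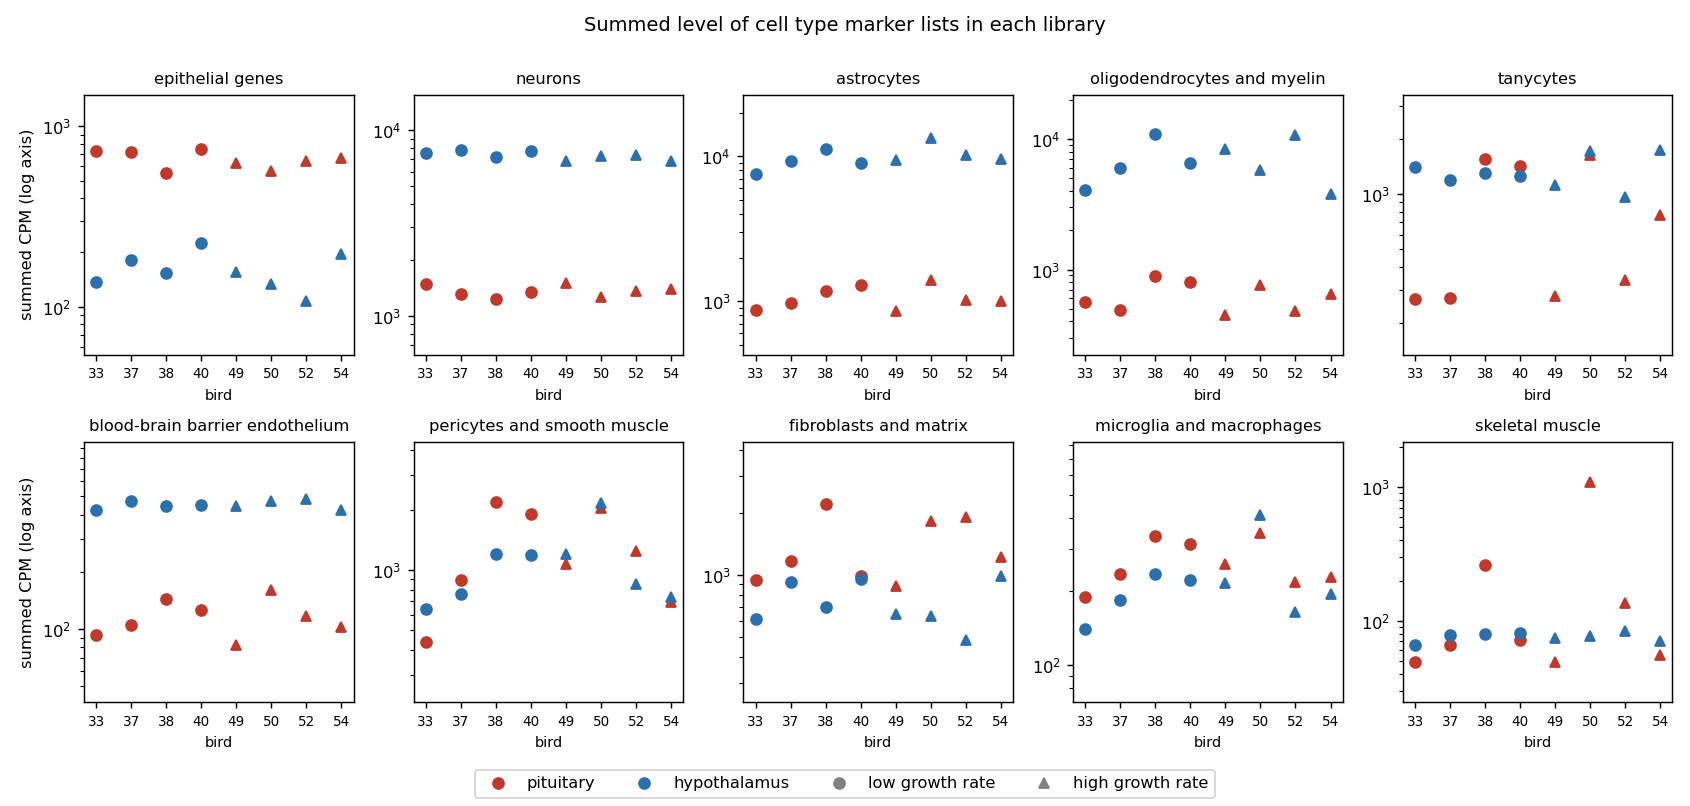
Summed level of the tested members of 10 cell type lists (y axis, CPM, log scale) in each bird (x axis), pituitary in red and hypothalamus in blue, circles for low and triangles for high growth rate. Epithelial, neuronal, astrocyte, myelin and barrier lists keep the tissues apart in all 8 birds, while the tanycyte, smooth muscle and skeletal muscle sums rise in the pituitaries of birds 38, 40 and 50 or of some of them.

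Genes of the blood-brain barrier separated the tissues, and general endothelial genes were mostly not called. The general genes were split, with 2 of 13 higher in the pituitary, 2 in the hypothalamus and 9 not called. These counts are near or below the shares over all genes, 14.2% and 19.2%. CDH5, the endothelial cadherin, differed by 0.22 ± 0.07. All 6 tested genes of the blood-brain barrier endothelium were higher in the hypothalamus, with a median of -1.98. LEF1, a WNT effector listed for barrier endothelium, was at 0.542 to 4.73 CPM (median 1.89) and 28.5 to 41.6 CPM (median 33.7), and the lysolipid transporter MFSD2A at 5.96 to 15.9 CPM (median 9.28) and 42.2 to 57.2 CPM (median 47.02). Bulk RNA does not show which cells carried the LEF1 RNA. The glucose carrier SLC2A1 and the amino acid carrier SLC7A5, which other cells express too, differed by -2.16 ± 0.12 and -1.80 ± 0.09. In the opposite direction, EMCN (endomucin), a glycoprotein of capillary and venous endothelium, was at 38.7 to 49.3 CPM (median 42.8) and 7.88 to 12.9 CPM (median 10.6) (2.03 ± 0.10). ESAM, a junction protein on the general list, went with the barrier genes at -3.12 ± 0.10.

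Supporting, immune and muscle genes depended more on single libraries. Of 15 tested fibroblast and matrix genes 7 were higher in the gland and 2 in the hypothalamus. The first count is above the 14.2% over all genes, and the second below the 19.2%. FBLN2 (fibulin 2) was at 66.5 to 108 CPM (median 72.6) and 6.26 to 10.5 CPM (median 7.52) and LUM (lumican) at 163 to 415 CPM (median 264) and 20.4 to 59.8 CPM (median 38.8), without overlap, while COL1A1 missed the fold threshold at 0.95 ± 0.39. Of 11 genes of pericytes and smooth muscle 5 were called in the pituitary, and 3 without birds 38, 40 and 50. MYH11, smooth muscle myosin, was at 5.66 to 261 CPM (median 80.997) there against 13.6 to 25.5 CPM (median 18.002), and its difference of 1.51 ± 0.63 became 0.41 without those birds and lost its call without any one of birds 38, 40, 50, 52 and 54. TAGLN, ABCC9 and KCNJ8 differed by 2.30 ± 0.29, 1.73 ± 0.12 and 1.83 ± 0.11. The T cell gene CD3E differed by 2.83 ± 0.34, with overlap. JCHAIN, the joining chain of secreted antibodies, was highest in bird 50 in both tissues, at 425 and 151 CPM. Microglia and macrophage genes did not separate the tissues. They gave 2 of 10 in the pituitary and 1 in the hypothalamus, beside 14.2% and 19.2% over all genes, with a median of 0.01. Among them TMEM119 was at 1.37 ± 0.36 and CSF1R at -1.65 ± 0.13, both with overlap. TMEM119 was at low levels, 0.874 to 5.52 CPM in the pituitary against 0.676 to 1.67 CPM. The skeletal muscle genes MB and NEB were called in the pituitary, at 2.20 ± 0.69 and 1.90 ± 0.54, and no muscle gene was without birds 38, 40 and 50.

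Receptors for hypothalamic signals were called in both directions. Of 48 listed, 19 had a named gene that passed the filter. Of these 19, 7 were higher in the pituitary, against 7 in the hypothalamus, with a median of -0.29. Both counts are above the shares over all genes, 14.2% and 19.2%. AVPR1B, which in mammals carries the vasopressin signal to corticotrophs, was at 115 to 201 CPM (median 151) in the pituitary and 0.502 to 1.02 CPM (median 0.675) in the hypothalamus (7.69 ± 0.13). The related AVPR1A was at 49.7 to 132 CPM (median 93.4) and 7.28 to 12.6 CPM (median 9.99). TRHR, the thyrotropin-releasing hormone receptor, was at 40.99 to 88.8 CPM (median 61.6) and 4.95 to 9.34 CPM (median 7.91). None of the 3 overlapped between tissues. TACR3, the neurokinin B receptor, differed by 3.66 ± 0.23, VIPR1, the receptor for VIP, which releases prolactin in birds, by 2.05 ± 0.09, and the dopamine receptor DRD2 by 1.86 ± 0.21.

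The hypothalamus was higher in ADCYAP1R1, the PACAP receptor, at 4.66 to 10.9 CPM (median 6.71) in the pituitary and 188 to 279 CPM (median 228) in the hypothalamus (-5.00 ± 0.16, edgeR adjusted p = 3.57e-10). GALR1, a galanin receptor, CCKBR, a cholecystokinin receptor, and GRPR, the gastrin-releasing peptide receptor, differed by -4.06 ± 0.20, -3.91 ± 0.13 and -2.29 ± 0.19. The somatostatin receptors were split. SSTR1 was at 1.16 to 5.79 CPM (median 2.73) and 66.6 to 91.8 CPM (median 74.9), and SSTR3 at 3.78 to 7.42 CPM (median 5.68) and 35.99 to 43.5 CPM (median 40.3), both higher in the hypothalamus without overlap. SSTR5 was higher in the pituitary, at 25.3 to 55.2 CPM (median 34.7) against 9.88 to 16.3 CPM (median 14.3) (1.43 ± 0.15), and SSTR2 overlapped at -0.24 ± 0.25. Dopamine receptors were split as well, with DRD3 at -1.33 ± 0.26. CRHR2, a receptor of the corticotropin-releasing hormone family, was at 21.3 to 60.03 CPM (median 31.7) and 23.99 to 48.2 CPM (median 32.9), a difference of -0.07 ± 0.10, and CRHR1 in the assembled table differed by 0.67 ± 0.10, under the fold threshold.

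**Figure D4:**
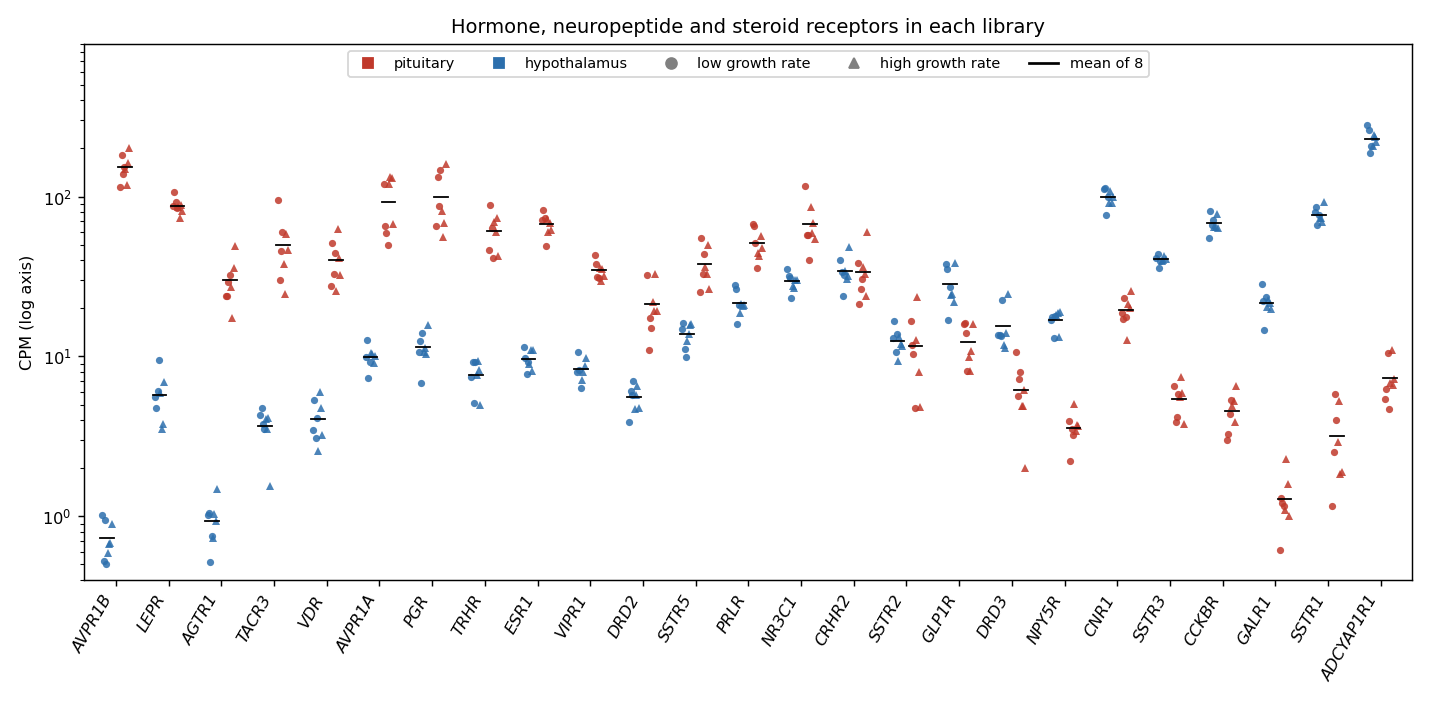
Level of 25 receptor genes (y axis, CPM, log scale) in each library, hypothalamus in blue on the left and pituitary in red on the right of each gene, circles for low and triangles for high growth rate, bars for the mean of 8. From AVPR1B to NR3C1 the pituitary is higher, CRHR2 and SSTR2 overlap, and from GLP1R to ADCYAP1R1 the hypothalamus is higher.

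Receptors of peripheral hormones were called in both directions, 4 of 19 each, which is near the shares over all genes, 14.2% and 19.2%. LEPR, the leptin receptor, was at 73.3 to 107 CPM (median 86.9) in the pituitary and at 3.53 to 9.46 CPM (median 5.74) in the hypothalamus. AGTR1, the angiotensin II receptor, was at 17.4 to 48.9 CPM (median 28.3) and 0.514 to 1.48 CPM (median 0.975). The 8 pituitaries lay above the 8 hypothalami for both, with log2 differences of 3.96 ± 0.15 and 4.93 ± 0.17 (edgeR adjusted p = 9.05e-10 and 4.96e-10). PRLR, the prolactin receptor, was higher in the pituitary by 1.24 ± 0.09. The cannabinoid receptor CNR1, the neuropeptide Y receptor NPY5R and the glucagon-like peptide 1 receptor GLP1R were higher in the hypothalamus, at -2.35 ± 0.12, -2.23 ± 0.14 and -1.19 ± 0.14. GHR and INSR, the growth hormone and insulin receptors, were under the fold threshold at 0.76 ± 0.11 and 0.37 ± 0.08.

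Nuclear receptors leaned to the pituitary, with 10 of 28 tested members higher there, 1 higher in the hypothalamus and a median of 0.61. The first count is above the 14.2% over all genes, and the second below the 19.2%. PGR, the progesterone receptor, was at 55.5 to 159 CPM (median 84.1) and 6.85 to 15.7 CPM (median 11.01), and ESR1, estrogen receptor alpha, at 49.2 to 82.2 CPM (median 69.8) and 7.71 to 11.5 CPM (median 9.47). The vitamin D receptor VDR was at 25.8 to 62.7 CPM (median 37.3) and 2.57 to 5.97 CPM (median 3.78). No hypothalamus reached the lowest pituitary in any of the 3, and the log2 differences were 3.04 ± 0.15, 2.79 ± 0.11 and 3.29 ± 0.07. NR5A2 differed by 2.88 ± 0.21, the glucocorticoid receptor NR3C1 by 1.13 ± 0.11, and the activity-induced NR4A1 and NR4A3 by 2.54 ± 0.27 and 2.34 ± 0.45. NR2F2 (COUP-TFII) was the member higher in the hypothalamus, at -1.27 ± 0.09. THRB, a thyroid hormone receptor, was just under the fold threshold at 0.95 ± 0.07.

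Genes of transmitter receptors were more often higher in the hypothalamus, with a few higher in the pituitary. Of 18 glutamate receptor genes 15 were higher in the hypothalamus and none in the pituitary (median -2.72). GRIN1, the obligatory NMDA subunit, was at 18.7 to 37.8 CPM (median 26.5) and 759.9 to 961 CPM (median 810.2), and GRIA1 and GRM4 differed by -4.69 ± 0.13 and -5.31 ± 0.40. GRIN3A overlapped, at 0.44 ± 0.19. Of 17 GABA and glycine receptor genes 10 were higher in the hypothalamus, led by GABRA2 at -5.11 ± 0.24 and GLRA2 at -4.52 ± 0.27. GABRP and GABRD, less common GABA-A subunits, were higher in the pituitary, at 20.6 to 28.1 CPM (median 26.7) against 2.76 to 5.71 CPM (median 3.79) and at 12.04 to 18.5 CPM (median 14.8) against 3.51 to 8.48 CPM (median 4.85). Among 18 receptors of monoamines and acetylcholine, CHRNA4 and HTR1B were higher in the hypothalamus at -4.94 ± 0.17 and -4.28 ± 0.18. The nicotinic subunit CHRNA3 was higher in the pituitary at 1.22 ± 0.15, with overlap between the tissues. Growth factor receptors gave 5 of 38 in the pituitary and 11 in the hypothalamus, and 3 and 12 with scaling by library totals. The count of 5 is near the 14.2% over all genes, and that of 11 above the 19.2%. RET, the receptor tyrosine kinase of the GDNF family, was at 240.0 to 388 CPM (median 319) and 34.2 to 55.1 CPM (median 45.1) (2.80 ± 0.09), while the BDNF receptor NTRK2 and the neurturin co-receptor GFRA2 differed by -3.75 ± 0.21 and -3.86 ± 0.33.

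Transcription factors of pituitary development and lineage were on the gland's side in 14 of 22 tested cases and never on the other, with a median of 2.59. SIX2, a homeobox factor of the placode gene family, was at 483 to 676 CPM (median 568) and 1.78 to 9.04 CPM (median 4.23), and its partner family member EYA1 at 116 to 173 CPM (median 141) and 1.44 to 3.87 CPM (median 2.42). EYA4 and SIX4 differed by 3.99 ± 0.07 and 2.20 ± 0.10. The zinc finger factor INSM1, found in neuroendocrine cells, differed by 3.34 ± 0.18. LHX3, a homeobox factor of the early gland, differed by 7.83 ± 0.30 in the assembled table. SOX4, SOX11 and ISL1 were among the 8 members not called.

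Factors listed for the hypothalamus did not all lie there. Of 52 listed, 10 had a named gene that passed the filter, and 4 of these were higher in the gland and 2 in the hypothalamus. The latter count is near the 19.2% over all genes. SIX3 was at 137 to 204 CPM (median 162) in the pituitary and 19.9 to 33.3 CPM (median 26.2) in the hypothalamus, and PAX6 at 50.3 to 86.5 CPM (median 76.8) and 2.96 to 8.71 CPM (median 5.87). Both are factors of the anterior neural plate and its placodes, and neither overlapped, with log2 differences of 2.70 ± 0.09 and 3.70 ± 0.18. FOXP2 and MEIS2 differed by 1.99 ± 0.09 and 1.24 ± 0.15. DLX1, a factor of GABA neurons, was at 1.86 to 5.34 CPM (median 3.96) and 59.4 to 105 CPM (median 82.4) (-4.52 ± 0.20). LHX8 differed by -1.62 ± 0.34, with overlap. SIX6 was at 0.05 ± 0.16, with a sign that turned under several settings. General neural factors gave 7 of 26 in the hypothalamus, among them CAMTA1 at -3.08 ± 0.06, NPAS3 at -2.94 ± 0.22 and the glial factor SOX8 at -2.67 ± 0.18, and 1 in the pituitary, the Notch target HES1, at 2.49 ± 0.14. The first count is above the 19.2% over all genes, and the second below the 14.2%.

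Secretion machinery was divided between the front and the end of the pathway. Of 51 genes for ER entry, folding and the unfolded protein response 18 were higher in the pituitary, against 1 in the hypothalamus (median 0.82), whereas of 55 genes for vesicle docking and exocytosis 4 were higher in the gland and 28 in the hypothalamus (median -1.05). ERO1A, the oxidase that makes disulfide bonds in the ER, was at 84.8 to 229 CPM (median 142) and 18.01 to 24.9 CPM (median 20.05), and SDF2L1 and CRELD2, ER stress proteins, differed by 2.33 ± 0.09 and 2.30 ± 0.14. The channel subunit SEC61A1 and the disulfide isomerase P4HB differed by 1.55 ± 0.06 and 1.55 ± 0.07, and the chaperone HSPA5 missed the fold threshold at 0.92 ± 0.09. On the exocytosis side SYT1, RAB3A and UNC13C differed by -3.92 ± 0.09, -3.18 ± 0.08 and -4.35 ± 0.20. UNC13B, a relative of UNC13C, and the syntaxin STX3 were higher in the pituitary, by 1.37 ± 0.10 and 1.23 ± 0.24. STX3 overlapped between the tissues at low levels, 1.86 to 4.94 CPM against 0.778 to 2.14 CPM.

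Granins were not uniform. CHGA was at 35677 to 77615 CPM (median 58364) in the pituitary and 386 to 582 CPM (median 508) in the hypothalamus (6.87 ± 0.19), SCG3 and CHGB differed by 2.47 ± 0.09 and 1.81 ± 0.19, and SCG2 overlapped at 0.11 ± 0.10. Of the processing enzymes, PCSK2 was higher in the hypothalamus, at 37.1 to 66.3 CPM (median 53.7) and 222 to 345 CPM (median 264), and carboxypeptidase CPE and the amidating enzyme PAM were under the fold threshold at -0.53 ± 0.07 and 0.49 ± 0.06.

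Ion channel genes that were called lay more often on the hypothalamus side. None of 25 voltage-gated calcium and sodium channel genes was higher in the pituitary and 14 were higher in the hypothalamus, with SCN1A at 0.774 to 2.74 CPM (median 1.11) and 52.8 to 92.5 CPM (median 76.4). Of 50 potassium and pacemaker channel genes 22 were higher in the hypothalamus, led by the glial channel KCNJ10 at -5.27 ± 0.46, and 7 in the pituitary, among them KCNJ16 at 3.14 ± 0.19 and KCNV1 at 1.81 ± 0.16. Those 7 are near the 14.2% over all genes. KCNJ10 was at -6.31 without birds 38, 40 and 50. The sodium pump subunit ATP1B1 was at 199 to 429 CPM (median 274) and 815 to 1112 CPM (median 912), higher in the hypothalamus. All 3 tested plasma membrane calcium pumps were higher in the hypothalamus, with ATP2B4 at -2.23 ± 0.07.

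Genes of glycolysis were more often higher in the hypothalamus, and few genes of mitochondrial respiration were called. Of 24 glycolysis genes 12 were higher there and 1 in the pituitary (median -1.04). ENO2, the neuronal enolase, was at 30.5 to 49.5 CPM (median 37.9) and 1695 to 2133 CPM (median 1799), and ALDOC, the brain aldolase, at 445 to 649 CPM (median 475) and 2871 to 3875 CPM (median 3405). The tissues did not overlap in either gene, with log2 differences of -5.59 ± 0.10 and -2.75 ± 0.07, whereas the ubiquitous enolase ENO1 stayed under the fold threshold at 0.45 ± 0.06. PFKL, HK1 and PKM differed by -2.10 ± 0.07, -1.46 ± 0.06 and -1.22 ± 0.07. PFKM, the muscle phosphofructokinase, was the member called in the pituitary, at 0.928 to 49.96 CPM (median 2.48) against 0.714 to 2.54 CPM (median 1.602); its highest values were 49.96 CPM in bird 50 and 10.1 CPM in bird 38, and it was not called without birds 38, 40 and 50 or without bird 38 alone. Of 25 citric acid cycle genes 5 and of 42 oxidative phosphorylation genes 2 were higher in the hypothalamus, none in the pituitary, with medians of -0.56 and -0.39; the first count is near the 19.2% over all genes and the second below it. IDH2 and NDUFA4 differed by -1.46 ± 0.21 and -1.53 ± 0.09. IDH2 overlapped between the tissues, and in bird 50 it was higher in the pituitary, at 86.0 against 76.9 CPM. Glycogen genes were called 4 of 19 each way, near the shares over all genes, with the branching enzyme GBE1 higher in the pituitary (1.77 ± 0.06) and the brain phosphorylase PYGB in the hypothalamus (-2.73 ± 0.11).

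Among the tested genes of the metabolic lists, a serine synthesis enzyme, PHGDH, had the largest difference toward the hypothalamus. PHGDH, which opens serine synthesis from a glycolytic intermediate, was at 1.28 to 5.76 CPM (median 1.76) in the pituitary and 406 to 628 CPM (median 426) in the hypothalamus. The next enzymes, PSAT1 and PSPH, were at 16.2 to 34.2 CPM (median 24.01) against 159 to 250.3 CPM (median 208) and at 4.67 to 6.96 CPM (median 6.17) against 13.6 to 18.3 CPM (median 15.8). All 3 steps were without overlap, at -7.67 ± 0.28, -3.13 ± 0.16 and -1.39 ± 0.10, and the glial glycine transporter SLC6A9 differed by -5.67 ± 0.32. Over the list of serine, glycine and one-carbon metabolism, 10 of 28 genes were higher in the hypothalamus and 1 in the pituitary, with a median of -0.57. Of 24 genes for glutamate, GABA and branched-chain amino acids 10 were higher in the hypothalamus and none in the pituitary, among them glutamine synthetase (GLUL, -1.78 ± 0.14) and the aspartate aminotransferase GOT1 (-3.10 ± 0.10).

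The creatine kinases differed in opposite directions. The cytosolic CKB was at 98.02 to 187 CPM (median 155) in the pituitary and 1068 to 1269 CPM (median 1152) in the hypothalamus, and the mitochondrial CKMT2 at 18.7 to 93.1 CPM (median 26.2) and 0.507 to 1.16 CPM (median 0.656). The log2 differences were -3.04 ± 0.11 and 5.44 ± 0.28, and CKMT2, highest in bird 50 at 93.1 CPM, differed by 5.01 without birds 38, 40 and 50. The other 4 enzyme families with called members in both directions, of 20 with at least 2 tested members, were the phosphofructokinases, the sodium pumps, the ceramide synthases (CERS5 2.07 ± 0.06, CERS6 -1.25 ± 0.13) and the adenylate cyclases (ADCY1 1.11 ± 0.08 and ADCY7 1.06 ± 0.10 against ADCY3 -1.85 ± 0.09). Among phosphofructokinases the pituitary call was PFKM alone, which was not called without birds 38, 40 and 50. Over all 24 families 10 of 74 members were higher in the pituitary, against 28 in the hypothalamus. The first count is near the 14.2% over all genes, and the second above the 19.2%.

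Of 29 tested genes of cholesterol synthesis and uptake, 12 were higher in the hypothalamus and 4 in the pituitary (median -0.65). The count in the pituitary is near the 14.2% over all genes. The synthesis enzymes CYP51A1, FDFT1 and HMGCS1 were higher in the hypothalamus, at -1.91 ± 0.07, -1.84 ± 0.08 and -1.74 ± 0.08. APOA1, the main protein of high-density lipoprotein, was at 21.9 to 98.3 CPM (median 34.2) and 1387 to 2132 CPM (median 1789) (-5.33 ± 0.29). On the pituitary side were the lysosomal carrier NPC2, at 348 to 444 CPM (median 406) and 59.4 to 78.6 CPM (median 68.3), and the efflux pumps ABCA1 and ABCG1, at 1.33 ± 0.09 and 1.33 ± 0.08. Fatty acid synthesis had 4 of 24 higher in the hypothalamus and none in the pituitary, no more than the shares over all genes. GPAM was at -2.04 ± 0.08 and ELOVL5 at -1.82 ± 0.07. Fatty acid oxidation gave 4 of 32 each way, no more than the shares over all genes, and 2 in the pituitary and 5 in the hypothalamus with library totals, with ACADL and EHHADH at 1.08 ± 0.05 and 1.30 ± 0.11 and the ketone enzyme BDH1 at -1.60 ± 0.09. Among sphingolipid genes the myelin lipid enzymes FA2H and UGT8 were higher in the hypothalamus, at -4.84 ± 0.35 and -2.35 ± 0.20, and SPTLC3, a serine palmitoyltransferase subunit, higher in the pituitary, at 15.7 to 35.1 CPM (median 20.6) against 1.66 to 2.63 CPM (median 2.12) (3.34 ± 0.12).

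**Figure D5:**
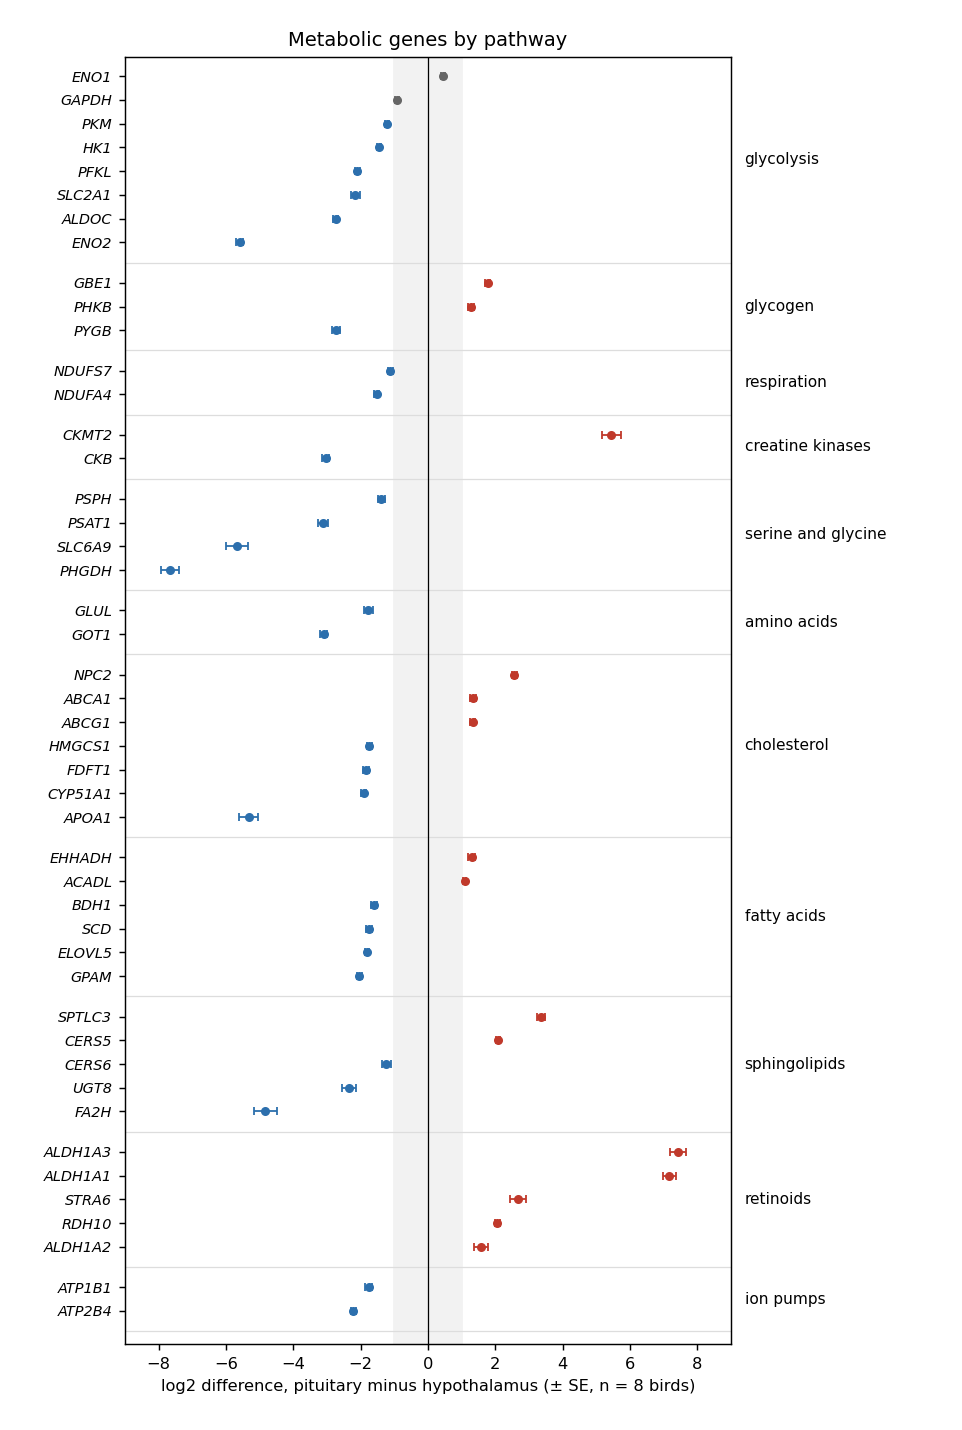
Log2 difference between pituitary and hypothalamus (x axis, with its standard error over 8 birds) of metabolic genes grouped by pathway (y axis), red where called higher in the pituitary, blue where called higher in the hypothalamus and grey where not called; the shaded band marks folds under 2. Serine synthesis, all glycolysis genes shown but ENO1, and cholesterol synthesis lie to the left, retinoid genes to the right, and the creatine kinases and sphingolipid genes on both sides.

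Genes that act on retinoids were mostly higher in the gland where they were called. They gave 6 of 15 in the pituitary, above the 14.2% over all genes, and 2 in the hypothalamus, below the 19.2%. Beside the ALDH1A enzymes, which make retinoic acid, these included STRA6, the retinol uptake receptor, at 131 to 329 CPM (median 175) and 10.99 to 68.6 CPM (median 31.5) (2.67 ± 0.24), RDH10, which makes retinaldehyde, at 2.06 ± 0.09, and ALDH1A2 at 1.57 ± 0.22. SLC16A10, a carrier of thyroid hormone and aromatic amino acids, was at 46.03 to 82.98 CPM (median 59.7) and 3.68 to 6.04 CPM (median 5.44) (3.52 ± 0.10). DIO2, which activates thyroxine, was higher in the pituitary by 2.06 ± 0.14 in the assembled table. CRYM, a thyroid hormone-binding protein, was higher in the hypothalamus at -2.92 ± 0.30. Of 38 genes of glutathione and redox control 6 were higher in the gland and 4 in the hypothalamus, near or below the shares over all genes. With library totals the counts were 5 and 7. HMOX1 (heme oxygenase), MGST2 and TXNIP were at 2.90 ± 0.16, 3.30 ± 0.15 and 2.50 ± 0.08, and PRDX6 was at -2.11 ± 0.09.

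All 58 tested cytoplasmic ribosomal protein genes had a positive log2 difference, from 0.48 to 1.48, and 36 were called in the pituitary; scaling by library totals left 19 of these calls and a median of 0.88 against 1.06. RPS24 was at 603 to 757 CPM (median 641) and 184 to 267 CPM (median 251). Of 14 immediate early genes 8 were higher in the pituitary, against 1 in the hypothalamus, beside 14.2% and 19.2% over all genes. EGR1 was at 299 to 2552 CPM (median 1329.7) and 115 to 227 CPM (median 152), lowest in the pituitary of bird 50, and FOS overlapped between tissues at 2.02 ± 0.18. DUSP1 and BTG2 differed by 2.91 ± 0.08 and 2.60 ± 0.10. ARC, a synaptic immediate early gene, went the other way, at 0.671 to 3.02 CPM (median 1.42) and 10.9 to 14.2 CPM (median 11.5) (-3.13 ± 0.21). Of 22 genes of growth hormone and IGF signalling 8 were higher in the gland and 3 in the hypothalamus. The first count is above the 14.2% over all genes, and the second below the 19.2%. The feedback inhibitors SOCS2 and CISH differed by 4.79 ± 0.16 and 3.89 ± 0.19, and PAPPA2, a protease that frees IGF from its binding proteins, was at 124 to 314 CPM (median 181) and 2.62 to 4.798 CPM (median 3.01) (5.79 ± 0.15). IGFBP7 and IGFBP2, IGF-binding proteins, differed by 1.76 ± 0.06 and -1.75 ± 0.12.

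Ligands and inhibitors of the WNT, BMP, activin and FGF pathways gave 11 of 42 in the pituitary and 15 in the hypothalamus. Both counts are above the shares over all genes, 14.2% and 19.2%. The activin beta A subunit INHBA was at 10.3 to 19.5 CPM (median 14.7) in the pituitary and 1.54 to 2.42 CPM (median 2.07) in the hypothalamus, and the beta B subunit INHBB at 0.552 to 1.28 CPM (median 0.983) and 4.102 to 6.68 CPM (median 5.198). The subunits went in opposite directions without overlap, at 2.83 ± 0.16 and -2.44 ± 0.16. FST (follistatin), the activin inhibitor, was higher in the pituitary at 1.71 ± 0.22, as were the WNT inhibitor-family member DKK3 at 2.09 ± 0.08 and FGF18 at 3.20 ± 0.22. Cell division genes gave 6 of 26 in the pituitary, with KIF23 at 1.51 ± 0.12, and 1 in the hypothalamus, ANLN, at -3.13 ± 0.21. The first count is above the 14.2% over all genes, and the second below the 19.2%. With library totals the counts were 3 and 2, both below those shares. Circadian clock genes had 1 of 15 higher in the pituitary, CRY1, at 1.49 ± 0.05, and 2 in the hypothalamus, among them NPAS2 at -1.55 ± 0.13. Both clock counts are below the shares over all genes, 14.2% and 19.2%.

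Outside the lists, the genes that follow were taken from the 15 in each direction with the largest differences without overlap. MGP, the matrix Gla protein that inhibits calcification, was at 112 to 199 CPM (median 139) and 1.099 to 4.12 CPM (median 1.49) (6.31 ± 0.23). USH1C, the scaffold harmonin, the complement component C7 and SERPINF1, a secreted serpin, differed by 6.23 ± 0.13, 5.97 ± 0.27 and 5.92 ± 0.13. RFX6, known in mammals as a transcription factor of pancreatic endocrine cells, was at 58.5 to 115 CPM (median 71.5) and 0.953 to 2.75 CPM (median 1.498) (5.57 ± 0.19), and the neuropeptide B and W receptor NPBWR2 at 94.7 to 242 CPM (median 194) and 4.06 to 10.3 CPM (median 7.65) (4.59 ± 0.22). The acute-phase factor CEBPD differed by 4.07 ± 0.30. Higher in the hypothalamus were CHL1, a neural adhesion molecule, the calcium sensor VSNL1 and acetylcholinesterase (ACHE), at -6.10 ± 0.36, -5.46 ± 0.10 and -5.05 ± 0.18. Without birds 38, 40 and 50 the difference of CHL1 was -7.17, and other called genes also moved away from 0 by more than 1.5 times in fold. PHGDH was then at -8.32, SLC6A9 at -6.32, FA2H at -5.91 and GRM4 at -6.57. SSTR1, SLC18A2 and LEF1 were at -5.26, -4.67 and -4.67, and JCHAIN was at 3.68.

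No tissue difference was called as dependent on growth rate. The interaction of tissue with growth rate, fitted with the bird as a block, gave 0 genes at an adjusted p under 0.05 in edgeR. It again gave 0 with 4 group means and no bird block. At an unadjusted p under 0.05 the fit with the bird block gave 328 of 13843 genes, fewer than chance gives at that threshold. With 4 birds in each growth group, the lack of calls does not show that the tissue differences are independent of growth rate. The smallest unadjusted p among named genes, 0.000122, belonged to LHFPL5, a tetraspan membrane protein, whose log2 tissue difference was -0.67 in birds of low and -1.95 in birds of high growth rate (edgeR adjusted p = 1). In birds of low growth rate alone 2019 genes were higher in the pituitary, against 2643 in the hypothalamus, and in birds of high growth rate alone 1813 and 2751.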

How the data were processed

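The 16 libraries were made from total RNA (column extraction, RIN over 7) with an Illumina TruSeq v2 kit, per the labels' protocols; this kit does not mark strand, so a gene and an overlapping antisense gene cannot be told apart. The main table, as the authors deposited it, gives raw counts for each gene in whole numbers, and a table with other gene identifiers (ENSABRG) was an alternative. Another table the authors deposited holds estimated counts for genes of a de novo assembly, from kallisto per the labels of the files, which were rounded. It served, chosen after the data were seen, for genes without a named gene in the main table; the percent identity and aligned percent of each protein match are the authors' deposited values, and a match needed 60% identity over 40% of the protein. The sources used here do not say whether length entered those estimated counts. Per the submitters' processing notes, which give neither role nor version, the tools included STAR, RSEM, kallisto, Salmon, DESeq2 and FastQC. The only genome build they list is a pig one, which the gene identifiers do not carry, so no coordinates are printed. Gene names came from the authors' table of pituitary results; 9810 of 13843 tested genes had one.

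Counts were filtered with filterByExpr by tissue and scaled with TMM, and genes were tested in edgeR 4.0.16 (with limma 3.58.1, under R 4.3.3) by its quasi-likelihood F test with the bird as a block, adjusted with Benjamini-Hochberg over all genes. Standard errors came from the F statistic. The same bird number in both tissues marks the same animal; deviations of the tissues of a bird from their group means correlated at 0.183 to 0.387 over genes. Chi-square per degree of freedom between libraries of a group was 8.33 to 78.0, so none repeated another. The fit was tested on simulated data. Replicates are birds, and intervals and p-values cover their spread. Members, lists and families were chosen with earlier results of these data known, so their counts are descriptions beside the share of all genes called. The rule for named genes took list members with the largest differences or the list's defining role, and outside the lists the 15 per direction with the largest differences; the text names a selection of these, made with their values known. Of 62 lists with 1857 genes in lists and families, 1138 genes had a name and passed the filter; the rest had no named, tested gene in the table used. Alternatives were other scalings, no filter, DESeq2 (1.42.0), no block, a tested fold threshold, birds left out and each growth group alone. The Salmon table and the authors' growth rate results were not used. Some genes of the lists are counted but not reported here by name. No gene or promoter sequence is shown.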

Additional observations from a re-analysis of the deposited data

Results flagged for a closer look

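Among 234 named genes, each examined within the 8 pituitary and the 8 hypothalamus libraries, 15 of 468 groups held a library that lay far from the others (a gap, divided by the range on a log2 scale, above Dixon's 95% critical value for 8 samples). Chance gives about 1 in 20 such groups, more than the 3.21% seen, so no weight is put on the pattern.

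In the pituitary, bird 50 accounted for 4 of the 8. It was the highest library for CKMT2 (mitochondrial creatine kinase) at 93.1 CPM against 18.7 to 36.0 CPM in the others, and for NDUFS7 (a respiratory chain subunit) at 78.2 CPM against 53.3 to 62.5 CPM. It was the lowest for EGR1 at 299 CPM against 943 to 2553 CPM, and for GAD2 at 45.1 CPM against 70.8 to 103 CPM. The same pituitary had the highest skeletal muscle sum, 1088 CPM, and the part of muscle RNA in these values was not tested. Bird 37 was the lowest for CPE, at 464 CPM, and for GABRA2, at 0.536 CPM. Bird 54 was the lowest for ADCY3, at 24.8 CPM, and for EHHADH, at 22.6 CPM.

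In the hypothalamus, bird 33 was highest for CERS6 at 13.6 CPM and for VSNL1 at 1211 CPM. Bird 38 was highest for CGA at 57.2 CPM against 11.4 to 14.3 CPM in the other 7. The summed pituitary hormones were highest in the same hypothalamus, at 199 CPM, but that sum includes CGA. Of its other members, PRL was highest in bird 38 and POMC in bird 54. Bird 52 was highest for HMOX1 at 28.1 CPM and for MT4 at 100.4 CPM. Bird 37 was lowest for CP (ceruloplasmin) at 2.01 CPM, and bird 54 lowest for TACR3 at 1.54 CPM.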

How the results depend on the processing

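The counts of genes called in each direction stayed within 1.5 times of those reported under every alternative run: 1482 to 2348 genes higher in the pituitary and 2168 to 3362 higher in the hypothalamus, and no called gene changed sign in the settings with the same gene identifiers. Over the fits that left out 1 bird each, the counts were 1860 to 1995 and 2633 to 2734. The interaction with growth rate gave 0 genes in every setting run. Without the replicate block, so that birds were not paired, 1982 genes were higher in the gland and 2609 in the hypothalamus with tissue alone, and 1985 and 2611 with growth rate as a term; 4537 and 4544 of the 4612 calls were made again, and the block changed the call of COL1A1 alone among the named genes, which passed without it at 1.16 in both fits. Of 212 named genes that were called, 196 kept their call in every setting that gave them a value (220 of the 234 named genes had one in the ENSABRG table and 233 in birds of low growth rate). The other 16 lost it in at least 1: ACADL, ADCY1, ADCY7, CHRNA3, CP, DRD3, GLP1R, MB, MEIS2, MYH11, NDUFS7, NEB, NR3C1, PFKM, STX3 and TMEM119. Genes not called changed sign in a few settings. SIX6 was at -0.13 with library totals, -0.0016 with DESeq2, -0.018 in birds of low growth rate, -0.039 to 0.143 with 1 bird left out (below 0 without bird 38 or 50), and -0.22 and -0.18 without birds 38, 40 and 50 and without these and bird 54, a setting added after the data were seen. ACTA1 was at -0.064 in birds of low growth rate, -0.15 (without bird 50) to 0.41 with 1 bird left out, and -0.40 and -0.35 without those sets of birds. AGRP was at 0.17 and 0.058 without the bird block, SCG2 at -0.069 with library totals and CRHR2 at -0.12 to 0.016 with 1 bird left out, above 0 without bird 37. SOX9 was at -0.20 to 0.035 with 1 bird left out, above 0 without bird 38 or 54, and at 0.10 without birds 38, 40, 50 and 54. The causes were not tested. Scaling by library totals moved 29 list medians by more than their spread between birds, all toward the hypothalamus. Depth limits the genes near 1 CPM, whose folds depend on few reads.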

Other observations

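Further gene groups held called members in both directions, at shares below those over all genes, 14.2% in the pituitary and 19.2% in the hypothalamus. Of 19 genes that handle iron, copper and zinc, 2 were higher in the gland and 3 in the hypothalamus. MT4, a metallothionein, was at 1.08 to 10.4 CPM (median 4.05) in the pituitary and 56.999 to 100.4 CPM (median 68.3) in the hypothalamus, a log2 difference of -4.08 ± 0.25. SLC30A7, a zinc carrier of the secretory pathway, went the other way, at 29.04 to 44.8 CPM (median 36.8) and 9.82 to 12.2 CPM (median 11.1) (1.73 ± 0.10). The tissues did not overlap in either gene. Of 17 heat shock genes 2 were higher in the gland and 1 in the hypothalamus. SERPINH1, the collagen chaperone, was at 218 to 358 CPM (median 267) and 53.9 to 85.6 CPM (median 64.7) (2.03 ± 0.12), and the cytosolic HSPH1 at 97.2 to 163 CPM (median 139) and 318 to 437 CPM (median 360.4) (-1.44 ± 0.08). The named genes were chosen with these values known.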
